A study of Mus musculus with 4 samples.

Results

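The genes of growth arrest and cell death followed here number 10, and were measured across the cells of mouse pancreatic islets: Trp53, which encodes p53; the p53 targets Mdm2, Ccng1, Bax, Bbc3, Gadd45a and Cdkn1a; and the cell cycle inhibitor genes Cdkn1b, Cdkn2a and Cdkn2c. They were taken by symbol, 10 of the 38457 features marked as mouse, and all 10 had counts in the cells kept. The islet cells came from mice labelled Sin3A mutant or WT, and their RNA was barcoded cell by cell in inDrop droplets and amplified by the linear CEL-Seq method. Each genotype had 2 libraries, given as biological replicates: mutant1_2426 and mutant1_3165, and WT1_2426 and WT1_3165. The endings _2426 and _3165 thus occur once per genotype, and their meaning is not stated. Sin3A is a scaffold protein of a histone deacetylase complex that represses genes. The labels name neither the allele nor a driver of its deletion, and give no age or sex of the mice.

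The p53 protein is a transcription factor that is stabilised by DNA damage and other stress. Its targets halt the cell cycle (Cdkn1a, Ccng1, Gadd45a), trigger death through mitochondria (Bax, Bbc3) or feed back on p53 itself (Mdm2, the ubiquitin ligase that marks p53 for degradation). The cell cycle inhibitors act on cyclin-dependent kinases: p21 (Cdkn1a) and p27 (Cdkn1b) bind cyclin and kinase complexes, while p16 (Cdkn2a) and p18 (Cdkn2c) bind Cdk4 and Cdk6. Beta cells divide in young mice and rarely later, and p27, p18 and p16 are known brakes on their division.

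The libraries held 1323 and 2445 barcodes in those labelled mutant1_2426 and mutant1_3165, against 1302 and 1878 in WT1_2426 and WT1_3165. Their total counts were 9282497 and 12236110 in the mutant libraries, against 12835201 and 10350701 in the WT libraries. The filters left 6526 cells, and their median counts per cell were 7605 and 4448.5 in the mutant libraries, against 9997 and 5306 in the WT libraries. Clustering gave 23 clusters, named from marker genes. No library had under 20 cells in the classes called beta-like (2670 cells), alpha-like (1066), delta-like (493), pp-like (192), endothelial-like (349) and pericyte-like (312). Most beta-like clusters were made up mainly of 1 library, and the alpha-like cells of the libraries ending in _2426 and _3165 lay mostly in different clusters. Between 12 and 42 barcode names were shared by each pair of libraries. Counts were summed per library and class, and levels are given as counts scaled to 1000000 counts per sum (CPM).

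The targeted gene did not separate the labels. In beta-like cells Sin3a had 51.3 and 17.8 CPM in the libraries labelled mutant1_2426 and mutant1_3165, against 25.3 and 40.9 CPM in WT1_2426 and WT1_3165. It was thus higher in the mutant library of the pair ending in _2426 and lower in that of the pair ending in _3165, and its log2 difference was 0.11 ± 0.62 (SE, n = 2 libraries per label, adjusted p = 0.999911 by edgeR). A count at the end of the transcript need not fall in a deleted part, so this value is no check of the mutation.

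The clearest difference among the 10 genes lay between dividing and resting beta-like cells. Cells were called cycling when they held at least 2 counts over 8 proliferation markers (Mki67, Top2a, Cdk1, Birc5, Cenpf, Ube2c, Pclaf, Rrm2) after each cell was thinned to 2000 counts, and non-cycling when they held none. By this measure 97 and 154 beta-like cells of mutant1_2426 and mutant1_3165, and 106 and 102 of WT1_2426 and WT1_3165, were cycling. These were 17.9% and 19.0% of the mutant cells and 19.5% and 15.4% of the WT cells that could be classed. None of the 10 genes was among the markers, and none was used to cluster the cells.

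Of the 10 genes, 7 were higher in cycling than in non-cycling beta-like cells and none was lower (edgeR's quasi-likelihood test with the library as block, adjusted p under 0.05). Cdkn2a, 1 of the 7, had few counts, and its place among the genes tested depended on its cycling sums. Over all 13809 genes tested, 9.57% were called higher and 8.27% lower. The median log2 difference of the 10 genes was 0.57, against -0.04 over all genes tested.

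Cdkn2c, the gene of the Cdk4 and Cdk6 inhibitor p18, had the largest difference of the 10. Cycling beta-like cells had 200.1 and 198 CPM in mutant1_2426 and mutant1_3165, and 191 and 182 CPM in WT1_2426 and WT1_3165. Non-cycling beta-like cells had 8.82 and 14.1 CPM in the mutant libraries and 10.3 and 6.07 CPM in the WT libraries. Every cycling sum stood above every non-cycling sum, and the 4 cycling values lay close together. The log2 difference was 4.24 ± 0.14 (SE, n = 4 libraries, adjusted p = 3.83e-21 by edgeR).

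Cdkn1a, the gene of p21 and the best known p53 target, came next. Cycling beta-like cells had 65.6 and 232 CPM of it in mutant1_2426 and mutant1_3165, and 140 and 85.3 CPM in WT1_2426 and WT1_3165, while non-cycling cells had 24.7 and 75.9 CPM in the mutant libraries and 29.5 and 24.9 CPM in the WT libraries. Cycling cells were higher in 4 of 4 libraries, although the non-cycling cells of mutant1_3165 stood above the cycling cells of mutant1_2426. The log2 difference was 1.74 ± 0.13 (SE, n = 4 libraries, adjusted p = 3.26e-12 by edgeR).

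Gadd45a, a stress gene whose protein binds PCNA and Cdk1, had 65.6 and 46.2 CPM in cycling beta-like cells of the mutant libraries and 43.9 and 61.2 CPM in those of the WT libraries, against 27.5 and 23.5 CPM and 31.3 and 42.8 CPM in the non-cycling cells of the same libraries. It was higher in cycling cells of 4 of 4 libraries, by a log2 difference of 0.76 ± 0.15 (SE, n = 4 libraries, adjusted p = 0.000369 by edgeR). Cdkn2c, Cdkn1a and Gadd45a passed the threshold whichever library was left out. The other 4 calls each rested on at least 1 library.

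Trp53 had 51.3, 17.0, 34.6 and 20.8 CPM in cycling beta-like cells, in the order mutant1_2426, mutant1_3165, WT1_2426 and WT1_3165, against 32.2, 10.7, 21.7 and 13.7 CPM in non-cycling cells. It was higher in cycling cells of 4 of 4 libraries (log2 difference 0.61 ± 0.17, SE, n = 4 libraries, adjusted p = 0.0116 by edgeR), and the call was lost without WT1_2426. Ccng1, which encodes cyclin G1, a p53 target that binds Mdm2 and a phosphatase, had 46.2, 94.7, 138 and 31.7 CPM in cycling cells, against 23.9, 70.7, 69.4 and 45.5 CPM in non-cycling cells, in that order of libraries. It was higher in 3 of 4 libraries and lower in WT1_3165, with a log2 difference of 0.53 ± 0.16 (SE, n = 4 libraries, adjusted p = 0.0153 by edgeR), and this call too was lost without WT1_2426.

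Cdkn1b, the gene of p27, had 71.5, 85.0, 107 and 91.8 CPM in cycling cells, in the same order of libraries, against 48.6, 79.6, 76.6 and 64.7 CPM in non-cycling cells. The difference was small (log2 0.36 ± 0.12, SE, n = 4 libraries, adjusted p = 0.0245 by edgeR), in 4 of 4 libraries, and it missed the threshold without mutant1_2426, without WT1_2426 or without WT1_3165. Cdkn2a, whose transcripts encode p16 and, from another first exon, the p53 activator p19Arf, was counted rarely. Cycling cells held 8, 7, 7 and 5 counts of Cdkn2a, or 6.73, 5.67, 4.65 and 5.47 CPM, and non-cycling cells 9, 7, 3 and 14 counts, or 2.27, 1.83, 0.553 and 4.25 CPM. The exact 95% Poisson interval of the Cdkn2a level in WT1_3165 was 1.78 to 12.8 CPM in cycling cells and 2.32 to 7.13 CPM in non-cycling cells, and it covers counting error only. The log2 difference was 1.43 ± 0.44 (SE, n = 4 libraries, adjusted p = 0.0213 by edgeR), and it missed the threshold without mutant1_2426, without mutant1_3165 or without WT1_2426. Whether Cdkn2a passed the expression filter was not independent of its cycling sums, which were the higher ones. It was too low for the test between labels in either beta-like state alone. Counts of p16 and p19Arf cannot be told apart, because their transcripts share the exons that follow the first.

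Mdm2, Bax and Bbc3, all p53 targets, did not pass the test between cycling and non-cycling beta-like cells. Mdm2 had 40.4, 47.8, 70.5 and 48.1 CPM in cycling cells, against 44.3, 43.3, 49.2 and 55.5 CPM in non-cycling cells, in the same order of libraries (log2 difference 0.08 ± 0.14, SE, n = 4 libraries, adjusted p = 0.778 by edgeR). Bax, which permeabilises the outer mitochondrial membrane, differed by log2 0.06 ± 0.12 (adjusted p = 0.815 by edgeR). Bbc3, the gene of the BH3-only protein Puma, differed by log2 -0.27 ± 0.19 (adjusted p = 0.357 by edgeR) and was higher in cycling cells of 1 of 4 libraries. It was called lower, at log2 -0.61, when cells were limited to 10% mitochondrial counts. The cycling beta-like set then held 495 cells, against 459 in the main analysis, and the cycling alpha-like set 40, against 126. The part of this change of cells in the Bbc3 call was not tested. The genes of Mdm2 and of both death proteins thus gave no call where Cdkn1a and Gadd45a were called.

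**Figure D1:**
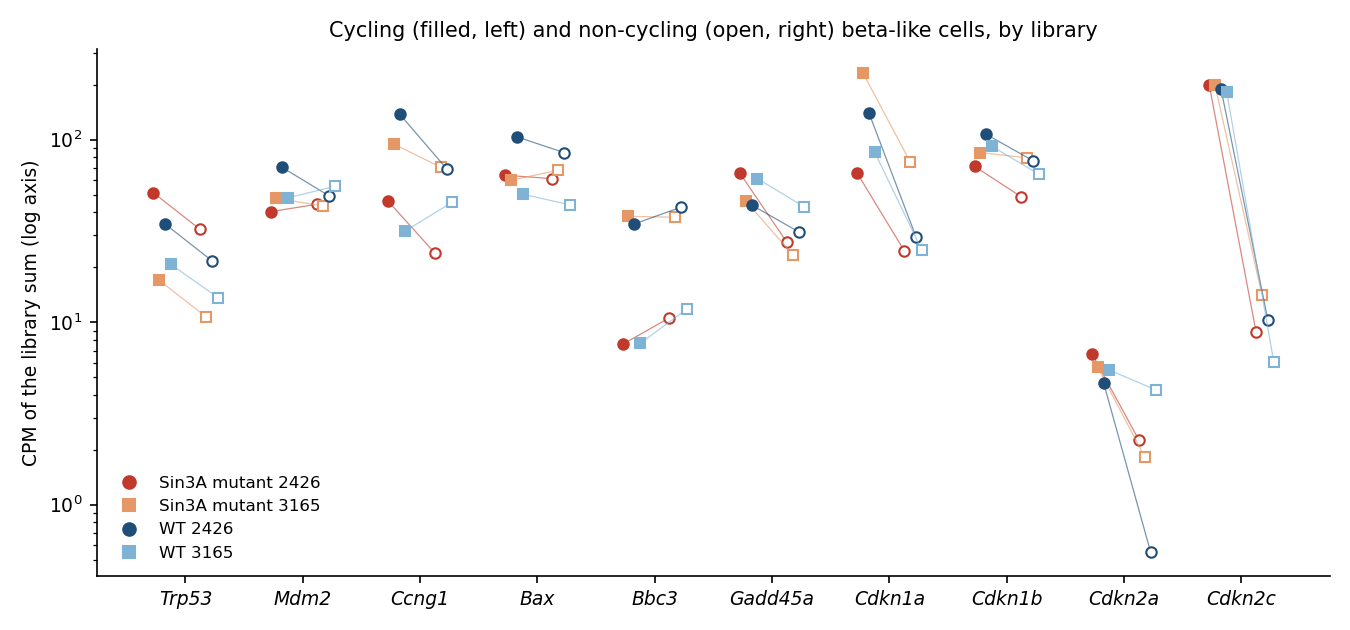
Levels of the 10 genes in CPM (log axis) in cycling (filled, left) and non-cycling (open, right) beta-like cells, with 1 pair of joined points per library. Cdkn2c lies between 182 and 200.1 CPM in cycling cells and at or under 14.1 CPM in non-cycling cells of all 4 libraries, while the pairs of Mdm2, Bax and Bbc3 go both ways.

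Median counts per cell were 11476, 7865, 14133 and 8674 in cycling beta-like cells, against 10140, 6566, 13858 and 6520.5 in non-cycling ones, in the order mutant1_2426, mutant1_3165, WT1_2426 and WT1_3165. The 9 alpha cell markers together had 3692, 3395, 2144 and 3908 CPM in cycling beta-like cells, against 3873, 2166, 1560 and 2099 CPM in non-cycling ones, so that they were higher in the cycling cells of 3 of 4 libraries. The 9 beta cell markers had 289600, 90350, 176300 and 125800 CPM in cycling cells, against 321200, 77810, 187900 and 128500 CPM in non-cycling ones. The median mitochondrial percentage was 2.98, 8.97, 5.22 and 6.24 in cycling cells, against 3.28, 9.95, 5.35 and 6.76 in non-cycling ones, lower in cycling cells of 4 of 4 libraries. The part of depth, of mitochondrial share and of RNA from other cells in these differences was not tested. Of 459 cycling cells, most lay in the cluster led by cell cycle genes. Outside that cluster 74 cycling cells remained, and in these none of the 10 genes was called against the non-cycling cells outside it, where 77 genes of any kind were. Cdkn2a was too low to be tested there. The log2 differences were also smaller there: 1.202 ± 0.61 for Cdkn2c, 0.51 ± 0.36 for Cdkn1a, 0.21 ± 0.43 for Gadd45a, 0.42 ± 0.51 for Trp53, 0.05 ± 0.34 for Ccng1 and 0.02 ± 0.30 for Cdkn1b (SE).

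Levels were then followed over the number of marker counts per cell. In cells with 0, 1, 2 to 4, and 5 or more marker counts, Cdkn2c had a median over the 4 libraries of 9.57, 24.1, 113 and 264 CPM. The 4 libraries did not overlap between cells with 2 to 4 counts (80 to 124 CPM) and cells with 5 or more (244 to 293 CPM). Cdkn1a had medians of 27.2, 64.6, 100.9 and 117 CPM over the same steps. Its libraries overlapped at every step, and in mutant1_2426 and WT1_3165 it was lower in cells with 5 or more counts than in cells with 2 to 4. Gadd45a had medians of 29.4, 31.6, 59.6 and 58.1 CPM, and Trp53 17.7, 20.5, 24.1 and 33.4 CPM. Mdm2 stayed between medians of 44.0 and 53.2 CPM.

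**Figure D2:**
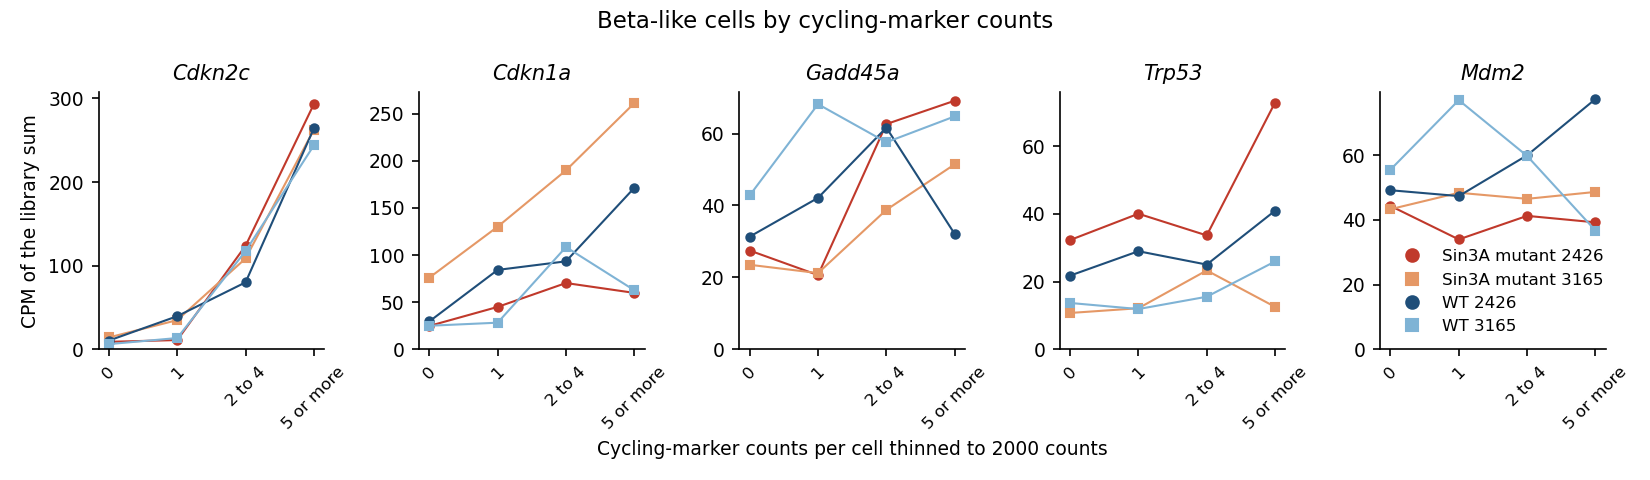
CPM of 5 of the genes in beta-like cells, by the number of proliferation marker counts per cell thinned to 2000 counts, with 1 line per library. Cdkn2c goes up at each step in every library, Cdkn1a goes up to cells with 2 to 4 counts in every library, and Mdm2 has no common course.

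Other genes of these pathways gave a mixed picture in the same comparison. Of 24 other cell cycle inhibitors and regulators, all tested, 9 were higher and 3 lower in cycling cells, with a median log2 difference of -0.07, against -0.04 over all genes. The 4 of smallest p were Cks1b (1.95 ± 0.08), a Cdk-binding partner of the ligase that degrades p27; Cdkn3 (3.96 ± 0.23), a phosphatase of Cdk2; Ezh2 (2.09 ± 0.18), the histone methyltransferase that silences Cdkn2a; and Cdkn2d (1.75 ± 0.16), the gene of p19Ink4d and closest relative of Cdkn2c. Several of these promote division or accompany it, whatever the name of the list. Of 40 other p53 targets 35 were tested, and 8 were higher and 2 lower, with a median log2 difference of 0.06. Ckap2 (3.78 ± 0.19), Psrc1 (2.52 ± 0.28) and Gtse1 (2.11 ± 0.27), which act on the mitotic spindle or microtubules, were higher, and Btg2 (-0.56 ± 0.07), an antiproliferative and immediate early gene, was lower. Of 16 members of the Bcl2 family 13 were tested, and 1 was higher and 3 lower: Bok (2.58 ± 0.43), a relative of Bax, was higher, while Bnip3 (-0.50 ± 0.09), Bnip3l (-0.34 ± 0.09) and the survival gene Mcl1 (-0.32 ± 0.08) were lower. As a check of the call, 33 of 36 cell cycle genes outside the markers were higher and 1 was lower, among them Ccnb1 (5.33 ± 0.14) and Stmn1 (4.04 ± 0.13). Of 17 immediate early genes, which respond to cell handling, 10 were lower and none higher. All are log2 differences ± SE of edgeR over the 4 libraries.

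The starts of the 3 inhibitor genes with the largest differences are shown because these genes were higher together in cycling cells. The difference of Cdkn2a rests on few counts. In the GRCm38 annotation Cdkn2c spans chr4:109660876-109667189 and Cdkn2a chr4:89274471-89294653, both on the minus strand, and Cdkn1a spans chr17:29090976-29100727 on the plus strand. Windows from 250 bases before to 50 bases after each start were taken from RefSeq on build GRCm38.p6, which gave 15 windows for the 10 genes, 2 each for Cdkn2c, Cdkn2a and Cdkn1a. The windows shown are those at the more upstream start. The Cdkn2c window lies at chr4:109666707-109667006 on the minus strand, the Cdkn2a window at chr4:89294570-89294869 on the minus strand, at the first exon of p19Arf, and the Cdkn1a window at chr17:29090729-29091028 on the plus strand. Capitals mark a match to an E2F site (TTTCCCGC, TTTGGCGC, TTTCGCGC or TTTGCCGC) in Cdkn2a and to a pair of p53 core letters (CATG and again CATG after any 6 bases) in Cdkn1a.
Cdkn2c: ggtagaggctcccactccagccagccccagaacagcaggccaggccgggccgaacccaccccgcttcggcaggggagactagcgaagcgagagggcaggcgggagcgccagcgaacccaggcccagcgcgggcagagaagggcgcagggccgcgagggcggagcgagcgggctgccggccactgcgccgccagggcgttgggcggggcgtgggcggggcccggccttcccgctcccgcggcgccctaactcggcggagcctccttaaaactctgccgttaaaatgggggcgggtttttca
Cdkn2a: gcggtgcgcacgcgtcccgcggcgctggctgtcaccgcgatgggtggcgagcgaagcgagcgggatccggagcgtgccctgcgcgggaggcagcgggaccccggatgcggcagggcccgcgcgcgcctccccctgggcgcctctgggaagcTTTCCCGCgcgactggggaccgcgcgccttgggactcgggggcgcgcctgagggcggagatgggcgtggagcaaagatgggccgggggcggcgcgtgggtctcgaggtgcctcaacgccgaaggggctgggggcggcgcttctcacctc
Cdkn1a: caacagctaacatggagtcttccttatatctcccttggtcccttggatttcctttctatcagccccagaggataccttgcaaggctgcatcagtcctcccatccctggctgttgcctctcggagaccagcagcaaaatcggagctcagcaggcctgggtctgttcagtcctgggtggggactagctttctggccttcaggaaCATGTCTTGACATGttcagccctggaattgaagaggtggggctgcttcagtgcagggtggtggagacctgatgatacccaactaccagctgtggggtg
Both strands of every window were searched, and matches of different motifs were allowed to overlap. The E2F letters occurred in 1 of the 15 windows, the Cdkn2a window above, 99 bases before the start, and in 2.26% of 32851 promoter windows of all genes. The paired p53 letters occurred in 1 of the 15 windows, that of Cdkn1a, 48 bases before the start, and in 0.712% of all windows. Neither window of Cdkn2c held either. The Sp1 letters GGGCGG occurred 4 times in the Cdkn2c window above and 0 times in the other, and 35.7% of all windows have them at least once. A match of letters is a description of the window only.

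Cell classes differed in which of the 10 genes they held. Each class was compared with non-cycling beta-like cells in 1 fit with the library as block, over 10272 genes, of which 9 of the 10 members were tested. Cdkn2a was too low to test: it had between 0.546 and 2.04 CPM in alpha-like cells and no count in pp-like or pericyte-like cells of any library. Cells of every class except beta-like include their cycling cells.

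Alpha-like cells had 4 of the 9 higher and none lower, where 13.4% of all genes were called higher and 13.1% lower. Cdkn1a had 94.97 and 175 CPM in alpha-like cells of mutant1_2426 and mutant1_3165, and 63.4 and 93.6 CPM in those of WT1_2426 and WT1_3165, against 24.7 and 75.9 CPM and 29.5 and 24.9 CPM in non-cycling beta-like cells of the same libraries. The log2 difference was 1.46 ± 0.26 (SE, n = 4 libraries, adjusted p = 7.51e-05 by edgeR), and alpha-like cells were higher in 4 of 4 libraries. Cdkn1a was also the only call when non-cycling alpha-like cells were set against non-cycling beta-like cells, where 8 of the 10 genes were tested and Cdkn2c was too low. Cdkn2c (1.42 ± 0.38, adjusted p = 0.00628), Trp53 (0.63 ± 0.22, adjusted p = 0.0326) and Gadd45a (0.58 ± 0.21, adjusted p = 0.0381) were the other calls of edgeR. The Cdkn2c call was made with cycling alpha-like cells included. Non-cycling alpha-like cells had 0, 4.21, 2.25 and 1.77 CPM of Cdkn2c, in the order mutant1_2426, mutant1_3165, WT1_2426 and WT1_3165. These lay below the 8.82, 14.1, 10.3 and 6.07 CPM in non-cycling beta-like cells of the same libraries. The alpha-like values rest on only 0, 5, 2 and 3 counts. The Cdkn2c call turned round, to a log2 difference of -1.504 with adjusted p = 0.0253, when cells were limited to 10% mitochondrial counts. The alpha-like class then held 40 cycling cells, against 126 in the main analysis, and the part of this in the reversal was not tested. The calls of Trp53 and Gadd45a were lost whichever library was left out, and that of Cdkn2c without WT1_3165.

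Endothelial-like and pericyte-like cells, the vessel cells of the islet, both had higher Trp53 and lower Ccng1 than non-cycling beta-like cells, and higher Cdkn2c as long as their cycling cells were included. In endothelial-like cells Trp53 had 107, 63.0, 113 and 44.5 CPM in the order mutant1_2426, mutant1_3165, WT1_2426 and WT1_3165, against 32.2, 10.7, 21.7 and 13.7 CPM in non-cycling beta-like cells. It was higher in 4 of 4 libraries (log2 difference 2.01 ± 0.23, SE, n = 4 libraries, adjusted p = 3.7e-08 by edgeR). In pericyte-like cells it had 99.99, 24.4, 79.1 and 45.2 CPM (log2 difference 1.49 ± 0.27, adjusted p = 4.18e-05 by edgeR). Ccng1 had 31.7, 14.4, 23.3 and 16.2 CPM in endothelial-like cells, with a log2 difference of -1.35 ± 0.30 (adjusted p = 0.000334 by edgeR), and was higher than in non-cycling beta-like cells of the same library in mutant1_2426 alone. It had 22.9, 17.4, 55.9 and 13.5 CPM in pericyte-like cells (log2 difference -1.04 ± 0.32, adjusted p = 0.00825 by edgeR). Ductal-like and fibroblast-like cells, with under 20 cells in mutant1_2426, were not tested. Their pooled non-cycling cells had 77.8 and 64.6 CPM of Trp53, against 20.1 CPM in beta-like ones, so high Trp53 was not particular to vessel cells. Pooled Ccng1 was 41.9 and 38.8 CPM in them, against 54.0 CPM, though not lower in every library.

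With cycling cells included, Cdkn2c was higher in both vessel classes, by log2 2.19 ± 0.43 in endothelial-like cells (adjusted p = 8.43e-05 by edgeR) and 2.45 ± 0.45 in pericyte-like cells (adjusted p = 5.44e-05 by edgeR). Their non-cycling cells had 4.09, 9.39, 0 and 10.8 CPM of Cdkn2c in endothelial-like and 10.2, 12.96, 8.28 and 7.22 CPM in pericyte-like cells, in the order mutant1_2426, mutant1_3165, WT1_2426 and WT1_3165, against 8.82, 14.1, 10.3 and 6.07 CPM in non-cycling beta-like cells. These ranges overlap, and Cdkn2c was too low to be tested with non-cycling cells on both sides. In that comparison Trp53 and Ccng1 kept their calls in endothelial-like cells, and Trp53, Bbc3 and Gadd45a theirs in pericyte-like cells. The non-cycling pericyte-like cells held only 0, 0, 2 and 1 counts of Bbc3 and 2, 2, 1 and 1 of Gadd45a, in the same order of libraries. Those 2 calls thus rest on few counts. Cdkn1b was lower in endothelial-like cells (-0.54 ± 0.22, adjusted p = 0.0424 by edgeR). Bbc3 (-1.41 ± 0.52, adjusted p = 0.0264) and Gadd45a (-1.05 ± 0.36, adjusted p = 0.0164) were lower in pericyte-like cells by the same test. The call of Cdkn1b was lost without mutant1_2426 or without mutant1_3165, and that of Ccng1 in pericyte-like cells without mutant1_3165. In pericyte-like cells Bbc3 kept its call only without WT1_3165, and Gadd45a only without mutant1_3165. In all, 2 members were higher and 2 lower in endothelial-like cells, where 56.5% of all genes were called, 29.2% higher and 27.3% lower. In pericyte-like cells 2 were higher and 3 lower, where 46.6% of all genes were called, 23.1% higher and 23.4% lower. These shares of members are near those of all genes.

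Delta-like cells gave no call among the 9, where 9.95% of all genes were called, 5.4% higher and 4.55% lower. Pp-like cells gave none either, where 13% of all genes were called, 5.98% higher and 7.04% lower. The nearest was Bax in pp-like cells, with 42.2, 11.4, 69.7 and 29.4 CPM, against 61.2, 68.1, 85.1 and 44.0 CPM in non-cycling beta-like cells (log2 difference -0.76 ± 0.26, SE, n = 4 libraries, adjusted p = 0.0531 by edgeR). Insulin counts in these classes differed widely between libraries. The insulin gene Ins1 had 83390, 7461, 48020 and 547 CPM in delta-like cells and 35340, 214, 928 and 565 CPM in endothelial-like cells, against 173800, 18640, 83270 and 39880 CPM in non-cycling beta-like cells, in the same order of libraries. The part of beta cell RNA in the class differences was not tested.

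The order of mean levels over the 4 libraries differed from gene to gene among cycling beta-like, non-cycling beta-like, alpha-like, delta-like, pp-like, endothelial-like and pericyte-like cells. Cdkn2c was highest in cycling beta-like cells (193 ± 8.5 CPM, SD, n = 4 libraries) and next in pericyte-like cells (58.2 ± 22 CPM), and these did not overlap, while the lower neighbours did. Cdkn1a was highest in cycling beta-like cells (131 ± 74 CPM), which overlapped with alpha-like cells (107 ± 48 CPM), and was lowest in pp-like cells (26.5 ± 13 CPM). Trp53 was highest in endothelial-like cells (81.8 ± 33 CPM) and lowest in non-cycling beta-like cells (19.6 ± 9.6 CPM), and each of its neighbours in the order overlapped. Mdm2, Bax and Cdkn1b were highest, or level with the highest, in alpha-like cells, with 66.0 ± 12, 91.8 ± 25 and 88.6 ± 18 CPM, and overlapped with all 6 other cell sets in Bax and Cdkn1b. Bbc3 ranged in mean from 10.8 ± 8.8 CPM in pericyte-like cells to 31.7 ± 17 CPM in pp-like cells.

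**Figure D3:**
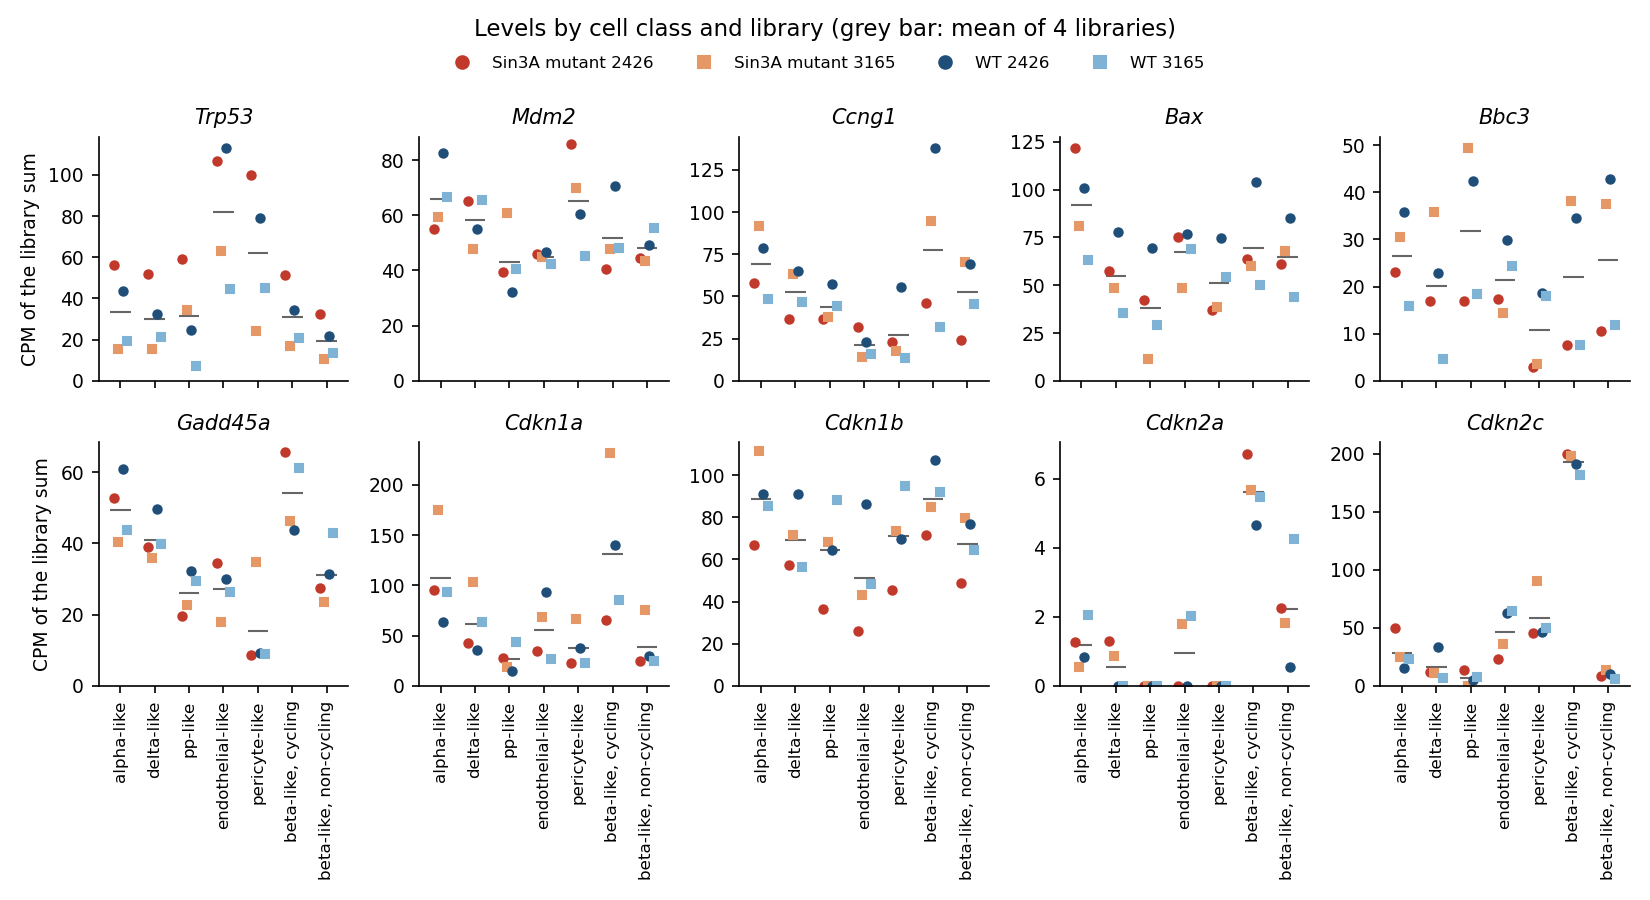
CPM of each gene in 7 cell sets, with 1 point per library and a grey bar at the mean of 4 libraries. Cdkn2c stands apart in cycling beta-like cells, Trp53 is highest in endothelial-like cells, and the libraries of most other genes and sets overlap.

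The rise of Cdkn2c in cycling cells was seen in other classes as values without a test, since no other class had 20 cycling cells in every library. Cycling alpha-like cells had 201, 109, 118 and 145 CPM of Cdkn2c (18, 51, 11 and 46 cells), in the order mutant1_2426, mutant1_3165, WT1_2426 and WT1_3165, against 0, 4.21, 2.25 and 1.77 CPM in non-cycling alpha-like cells. Pooled over libraries, Cdkn2c had 166 CPM in cycling and 5.85 CPM in non-cycling delta-like cells, and 148 CPM in cycling and 7.12 CPM in non-cycling endothelial-like cells. It had 184 CPM in cycling and 9.39 CPM in non-cycling pericyte-like cells, and 296 CPM in cycling and 7.18 CPM in non-cycling fibroblast-like cells. It was higher in cycling cells of 4 of 4 libraries in each of these classes. Of its 57 counts in cycling delta-like cells, 44 came from WT1_2426. Ductal-like cells were lower, with 76.0 CPM in cycling and 7.18 CPM in non-cycling cells, and higher in 3 of 4 libraries.

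Cdkn1a did not keep to that pattern in every class. It had 186 CPM in cycling and 98.2 CPM in non-cycling alpha-like cells, higher in 4 of 4 libraries, and 209 CPM in cycling and 141 CPM in non-cycling ductal-like cells, higher in 3 of 4. Delta-like cells had 189 CPM of it in cycling and 46.2 CPM in non-cycling cells, higher in 3 of 4 libraries. Of the 65 counts in cycling delta-like cells, 53 came from mutant1_3165. Pericyte-like cells had 59.3 CPM in cycling and 20.65 CPM in non-cycling cells, also higher in 3 of 4. In endothelial-like cells Cdkn1a had 55.4 CPM in cycling and 49.8 CPM in non-cycling cells and was higher in 2 of 4 libraries. In fibroblast-like cells it had 10.1 CPM in cycling and 14.4 CPM in non-cycling cells and was higher in 1 of 4. Several of these sums rest on fewer than 20 cells.

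**Figure D4:**
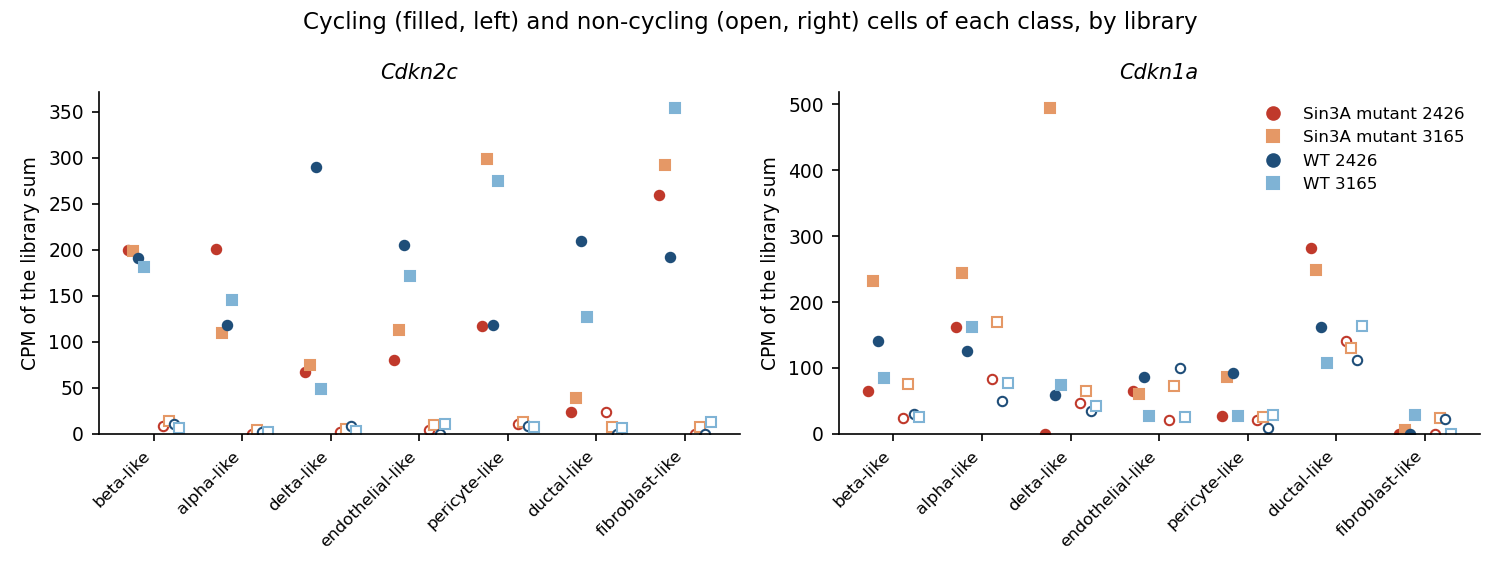
CPM of Cdkn2c and Cdkn1a in cycling (filled, left) and non-cycling (open, right) cells of 7 classes, with 1 point per library. Cdkn2c is at most 23.5 CPM in non-cycling cells and above that in cycling cells except those of 1 ductal-like sum, whereas the states overlap in Cdkn1a in every class.

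Over the 28 sums of 7 cell sets in 4 libraries, the genes most like Cdkn2c in log2(CPM + 1) were Ccna2 (Pearson r = 0.95), Mki67 (0.93) and Birc5 (0.91), all genes of dividing cells. For Cdkn1a they were Rpa2 (0.74), Sass6 (0.73) and Tpr (0.70), and for Trp53 they were Rhoa (0.86), Ssh1 (0.85) and Hnrnpm (0.85). Ccng1 was most like Ift22 (0.88), Tspan7 (0.86) and Rab3ip (0.86), Bbc3 most like Gnb1l (0.86), Bax most like Wdr18 (0.81), Gadd45a most like L3mbtl2 (0.76) and Mdm2 most like Adcy1 (0.60). Mki67 and Birc5 are among the markers by which cells were called cycling. The sums include cycling and non-cycling beta-like cells, which were split by counts of those markers. Cdkn2c and Ccna2 also differed between these states. The correlations of Cdkn2c with Ccna2, Mki67 and Birc5 are therefore not independent of that split. Sums of 1 library also share its depth and its preparation, so all correlations given here are descriptions.

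Between the genotype labels none of the 10 genes passed the test in any cell set. The test was made in beta-like cells, in their cycling and non-cycling cells, in the other 5 classes and in all cells together, and 0% of all genes tested were called in each of them. Of the 16064 genes tested in beta-like cells by edgeR, 21 reached an unadjusted p under 0.05 with a higher level in the mutant and 3 with a lower one, and none of the 10 was among them. DESeq2 on the same beta-like sums called 0 genes.

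The values themselves mostly differed between the 2 libraries of a label. Cdkn1a had 35.3 and 115 CPM in beta-like cells of mutant1_2426 and mutant1_3165, against 56.4 and 36.7 CPM in those of WT1_2426 and WT1_3165. The mutant1_3165 library stood alone, and the log2 difference was 0.75 ± 0.66 (SE, n = 2 libraries per label, adjusted p = 0.999911 by edgeR). That library also had the lowest sum of beta cell markers in its beta-like cells, with 314800 and 80570 CPM in mutant1_2426 and mutant1_3165, against 184500 and 128200 CPM in WT1_2426 and WT1_3165, and the highest median mitochondrial percentage in them, with 3.26 and 9.82 in the mutant libraries, against 5.37 and 6.59 in the WT libraries. The part of both in the level of Cdkn1a was not tested. Within the pair ending in _2426 Cdkn1a was lower in the mutant library (0.625 times WT), and within that ending in _3165 it was higher (3.14 times WT).

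The death gene Bbc3 had 9.93 and 38.1 CPM in the mutant libraries, against 40.9 and 10.4 CPM in the WT libraries. Ccng1 had 30.3 and 76.3 CPM in the mutant libraries, against 85.8 and 42.4 CPM in the WT libraries. Bax (62.6 and 67.7 CPM in the mutant libraries, against 90.3 and 46.4 CPM in the WT libraries) followed the same order within the pairs: lower in mutant1_2426 than in WT1_2426, and higher in mutant1_3165 than in WT1_3165. Trp53 and Cdkn2a ran the other way within the pairs, with 37.1 and 12.1 CPM of Trp53 in the mutant libraries, against 24.9 and 14.7 CPM in the WT libraries. In all, 8 of the 10 genes changed in opposite directions within the 2 pairs in beta-like cells. The same count was not made over all genes, so it does not set these genes apart.

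Mdm2 and Gadd45a were the 2 genes whose mutant libraries both lay below both WT libraries in beta-like cells, 2 of 10, where 12.9% of all genes with at least 20 counts did not overlap in either direction. That limit holds for the shares of all genes in the cell sets below too, but was not set for the 10 genes. Mdm2 had 42.9 and 45.2 CPM in the mutant libraries, against 53.1 and 56.8 CPM in the WT libraries (log2 difference -0.27 ± 0.56, SE, n = 2 libraries per label, adjusted p = 0.999911 by edgeR). Gadd45a had 34.3 and 28.4 CPM in the mutant libraries, against 34.8 and 49.9 CPM in the WT libraries (log2 difference -0.37 ± 0.56, adjusted p = 0.999911 by edgeR). Reads of Gadd45a could not be told apart from those of E230016M11Rik on the other strand, which overlaps it, because it is not stated whether counting used the strand.

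**Figure D5:**
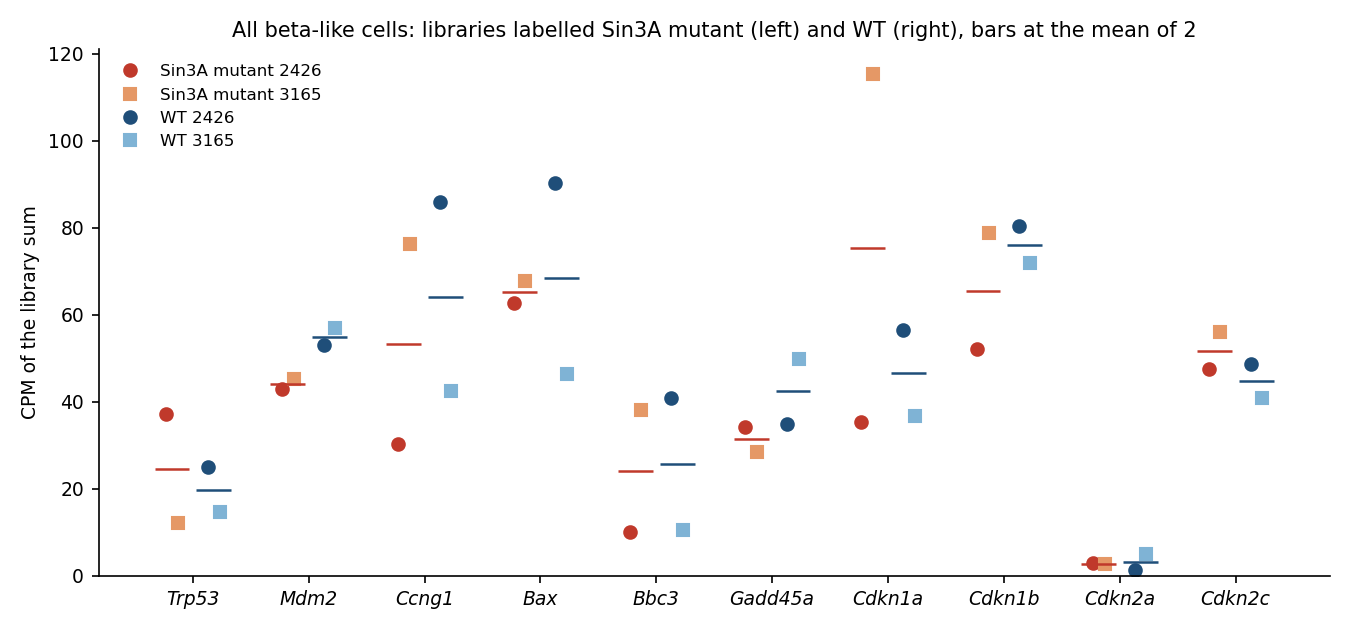
CPM of the 10 genes in all beta-like cells, with 1 point per library, the libraries labelled Sin3A mutant left and those labelled WT right, and a bar at the mean of 2. The labels overlap in 8 genes, and Cdkn1a is highest in mutant1_3165 at 115 CPM.

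In non-cycling beta-like cells the same 2 genes, Mdm2 and Gadd45a, lay lower in both mutant libraries, and 13.1% of all genes did not overlap. In cycling beta-like cells 2 of the 10 lay above WT in both mutant libraries and 2 below, where 15.7% of all genes did not overlap. Cdkn2c had 200.1 and 198 CPM there in the mutant libraries, against 191 and 182 CPM in the WT libraries, and Cdkn1b 71.5 and 85.0 CPM, against 107 and 91.8 CPM. Neither passed the test, with log2 differences of 0.23 ± 0.50 and -0.22 ± 0.51 (adjusted p = 0.999982 each by edgeR). The mutant change did not differ detectably between cycling and non-cycling cells: of the 10 genes none was called, and 0% of all 13809 genes were. Cdkn1a had the smallest p of the 10 in that test (log2 -0.56 ± 0.25, unadjusted p = 0.0338, adjusted p = 0.999853 by edgeR).

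Outside beta-like cells the label differences of the 10 genes as a set took no common direction. Trp53 alone, uncalled, was above 0 in alpha-like (log2 0.18 ± 0.65), delta-like (0.34 ± 0.71), pp-like (1.52 ± 0.82), endothelial-like (0.22 ± 0.58) and pericyte-like cells (0.18 ± 0.77, SE). In alpha-like cells Cdkn1a had 94.97 and 175 CPM in the mutant libraries, against 63.4 and 93.6 CPM in the WT libraries, and Cdkn2c 50.05 and 25.1 CPM, against 15.9 and 23.3 CPM. Mdm2 had 55.2 and 59.5 CPM there in the mutant libraries, against 82.6 and 66.6 CPM in the WT libraries. These 3 of 10 did not overlap, as did 14.3% of all genes in alpha-like cells. The percentages of alpha-like cells called cycling were 17.0 and 15 in the mutant libraries, against 8.53 and 11.9 in the WT libraries, and the part of this in the Cdkn2c values was not tested.

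In endothelial-like cells Cdkn2c lay the other way, with 23.1 and 36.0 CPM in the mutant libraries, against 63.2 and 64.8 CPM in the WT libraries, and Cdkn1b had 25.9 and 43.2 CPM, against 86.5 and 48.6 CPM. The percentages of endothelial-like cells called cycling were 20 and 22.0 in the mutant libraries, against 24.5 and 25 in the WT libraries, and the part of this in the Cdkn2c values was not tested. Together with Bbc3 these were 3 of 10 without overlap, where 23.1% of all genes had none. In pericyte-like cells Mdm2 was higher in both mutant libraries (85.7 and 69.8 CPM, against 60.5 and 45.2 CPM in the WT libraries), while Bbc3 was lower (2.86 and 3.49 CPM, against 18.6 and 18.1 CPM), from few counts. They and Bax were 3 of 10 there, where 21.9% of all genes with at least 20 counts did not overlap. The 10 were not held to that limit: Bbc3 was too low to be tested in pericyte-like cells, and Cdkn2a had no count in them. The count and the share are thus over unlike sets of genes. Delta-like cells had 2 of 10 and pp-like cells 3 of 10, where 15.3% and 20.5% of all genes did not overlap. In pp-like cells Trp53 had 59.1 and 34.2 CPM in the mutant libraries, against 24.9 and 7.34 CPM in the WT libraries (log2 difference 1.52 ± 0.82, SE, n = 2 libraries per label, adjusted p = 0.999947 by edgeR).

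Whether the mutant change of a gene differed between classes was tested for the 15 pairs of the 6 classes, a test chosen after the values were seen. Of 132 tests of the 10 genes 0 passed, and the smallest adjusted p was 0.998973, where 0.00184% of all tests of genes were called. At an unadjusted p under 0.05 there were 9, or 6.82% of them, against 2.11% of all tests of genes. Most of the 9 were tests of Cdkn2c in pairs that share a class. These tests are not independent, so the 2 percentages do not show an excess over the 10 genes. The change of Cdkn2c in endothelial-like minus alpha-like cells was log2 -1.86 ± 0.69 (unadjusted p = 0.0208, adjusted p = 1 by edgeR), and that of Mdm2 in pericyte-like minus alpha-like cells was 1.00 ± 0.57 (unadjusted p = 0.105, adjusted p = 1 by edgeR).

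None of the related lists gave a call between the labels in beta-like cells. Of the 35 other p53 targets tested none passed, with a median log2 difference of -0.11, against -0.01 over all genes, and Gtse1 (1.25 ± 0.69), Psrc1 (0.62 ± 0.70), Xpc (-0.60 ± 0.71), which recognises DNA damage, and the kinase gene Plk3 (-0.56 ± 0.68) had the smallest p. Of the 24 other inhibitors none passed, with a median of -0.22. Those of smallest p were Rbl2 (-0.61 ± 0.63), a relative of the retinoblastoma gene, Tob1 (-0.53 ± 0.61), Cdkn2d (-0.56 ± 0.65) and Cdkn3 (0.47 ± 0.72). Of 14 members of the Bcl2 family tested none passed, with a median of -0.02, and Bid (0.86 ± 0.79), Bik (-0.80 ± 0.83), Bcl2l2 (-0.49 ± 0.56) and Bmf (-0.50 ± 0.69) led. The adjusted p of each of these genes was 0.999911 by edgeR.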

How the data were processed

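The files hold raw counts per feature and cell barcode, deposited by the authors for islet cells profiled by inDrop with CEL-Seq amplification and NextSeq500 sequencing, per the labels' protocols. Builds GRCh38 and GRCm38 are named in the submitters' processing notes, and the aligner, the counting, any collapsing of molecular identifiers and the use of strand are not stated there. The 38457 mouse features were used. Barcodes with at least 500 counts, 250 genes and at most 25% mitochondrial counts were kept, and those called doublets by Scrublet in scanpy 1.11.5 (3, 17, 13 and 7 barcodes of mutant1_2426, mutant1_3165, WT1_2426 and WT1_3165) were removed. Cells were clustered on 2000 variable genes without the 10 genes (30 components, 15 neighbours, Leiden resolution 1) and named from markers. One beta-like cluster was named by a rule set after its genes were seen, and a stricter naming without it was an alternative. Of the 563 cells of that cluster, 543 came from WT1_3165. Under stricter naming WT1_3165 had 23 non-cycling beta-like cells, against 468 in the main analysis.

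Counts were summed per library and cell set and tested with edgeR 4.0.16 in R 4.3.3 (TMM scaling, expression filter, quasi-likelihood test, Benjamini-Hochberg adjusted p under 0.05), with the library as block between cell sets and no block between labels. DESeq2 1.42.0, other scalings, filters, cell limits and leaving out each library were alternatives. The p-values rest on the spread among these 4 libraries, which may be partly technical. Poisson intervals cover counting error only. On simulated counts with known changes the test between cycling states recovered most changes and the test between labels none, so a missing call between labels does not show equal levels. Named were the 10 genes, Sin3a and, from each related list, the 4 genes of smallest p. The 10 genes and the lists were chosen with earlier results of these data known. Positions and strands are from GRCm38. The gene most like Cdkn1b is not reported here.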

Additional observations from a re-analysis of the deposited data

How the results depend on the processing

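Among the single values of the 10 genes, 2277 kept their direction and their side of the threshold under the alternatives, 60 lost the call, 9 gained it and 1 turned round. The last was Cdkn2c in alpha-like against non-cycling beta-like cells, at log2 -1.504 with at most 10% mitochondrial counts. Of the counts of calls 387 stayed within 1.5 times and 61 did not.

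In cycling against non-cycling beta-like cells, where 7 of the 10 genes and 2463 genes in all were called, the calls became 3 and 1419 with DESeq2, 1 and 310 with no replicate block, and 0 and 77 without the cluster led by cell cycle genes. With no filter on low counts 4 of the 10 were called. Leaving out each library gave 3 to 6 of the 10 and 1611 to 2193 genes, the lowest of both without WT1_2426. Without the cluster Cdkn2a was not tested, there were fewer cycling cells, 74 of 459, and the differences themselves shrank (Cdkn2c to log2 1.202, Cdkn1a to 0.51). The cause was not tested.

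In alpha-like against non-cycling beta-like cells the 4 calls became 2 with no filter, with the 10 genes kept for clustering or with stricter naming, 2 with at most 10% mitochondrial counts, of which Cdkn1a was higher and Cdkn2c lower, and 1 with non-cycling cells on both sides. Leaving out each library gave 1 to 2, and 1785 to 2451 genes. With non-cycling cells on both sides 2 were called in endothelial-like and 3 in pericyte-like cells, and leaving out each library gave 3 to 5 in pericyte-like cells. In the non-cycling pericyte-like cells Bbc3 and Gadd45a had at most 2 counts per library. In pp-like cells 1 was called with no filter, with the 10 genes kept for clustering, with at most 10% mitochondrial counts or with stricter naming, and leaving out each library gave 781 to 1249 genes. In delta-like cells 1538 genes were called with no filter, and 524 to 996 when each library was left out. Stricter naming and the setting with non-cycling cells on both sides were chosen after seeing the data.

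Between the labels none of the 10 genes was called under any alternative run. With no filter 23 genes of any kind were called in endothelial-like and 9 in pericyte-like cells. With the title ending as replicate block 3 were called in pericyte-like cells and 0 in beta-like cells, and no call of the 10 genes changed. Libraries with the same ending deviated together with r = 0.0369 over 16064 genes in beta-like, 0.0795 in alpha-like, 0.128 in delta-like, 0.257 in pp-like, 0.387 in endothelial-like and 0.54 in pericyte-like cells, but the labels do not say that an ending marks a shared batch, so the fits without the block are given as the results. Leaving out each library gave 0 to 1 genes in beta-like and in non-cycling beta-like cells, 0 to 42 in cycling beta-like, 0 to 8 in alpha-like, 0 to 15 in delta-like, 0 to 10 in pp-like, 1 to 101 in endothelial-like, 0 to 9 in pericyte-like and 0 to 56 in all cells. The fits with 1 library left in a label assume that it varies like the others. For the difference of the mutant change between cycling and non-cycling cells these fits gave 0 to 11 genes, and stricter naming gave 1. Depth limits Cdkn2a most, with at most 14 counts per library in either beta-like state.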
